A study of Anopheles gambiae with 16 samples.

Results

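The 84 probe sets described here were bright and nearly level across hemocytes, heads and carcasses of adult Anopheles gambiae females. They were taken from the 16884 probe sets whose IDs begin with Ag., out of 22761 on the array. A member had a mean intensity of at least 1000 in each of the 3 tissues, all labelled by 2 rounds of amplification. In addition, the largest and smallest tissue means of log2(intensity + 16) differed by less than 0.5, a 1.41-fold range that is called the span below. The first criterion held for 419 probe sets (2.48%), and the span limit kept 84 of them (20%), which left 335 abundant probe sets that were not even. The members were thus chosen by their measured tissue levels and tissue differences, which are given below as a description with no test.

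Transcripts that stay bright in unlike tissues are commonly those of basic cell machinery, such as ribosomal proteins, translation factors and energy metabolism, and evenly expressed genes are used as references when expression is compared between tissues. The files pair no ID with a gene. None of the Ag. IDs matched the 15165 genes of the RefSeq table for this species (0 matches), so the identity and function of the members are not given here, and the tissue labels could not be checked against marker genes. An Ag. ID holds a chromosome arm, or UNKN where it has none, and the mark CDS (coding sequence), the mark UTR (untranslated region) or neither mark. In the array maker's naming, the endings _a, _s and _x before _at stand for probes that also match other transcripts of a gene, several genes, or other sequences in part, so a level may be the sum over more than 1 transcript.

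All mosquitoes were females of the G3 strain, described as naive, at 1 to 2 days after eclosion. There were 4 arrays per group, each of a separate biological replicate by its title. Circulating hemocytes, the blood cells, were drawn as hemolymph drops from pools given as 1000 females in one label and as 500 infected females in another. These labels conflict in pool size, and the second also conflicts with the description as naive. Heads came from pools of 40 females, although the source name of head replicate 4 names carcasses of 20 females. Carcasses, the bodies left after bleeding and decapitation, came from pools of 20. Hemocytes, heads and one set of carcasses (two-round carcasses) were labelled from 80 ng of RNA by the two-cycle protocol. A second set of carcasses (one-round carcasses) was labelled from 1000 ng by the one-cycle protocol. Same-numbered arrays of both carcass sets were read as paired, as described under processing, but the adjusted p values given in the Results do not use the pairing. Two-cycle labelling primes its second cDNA synthesis with random primers, which shortens the product towards the 3′ end of the transcript. Hemocytes differed from the other tissues in collection and RNA extraction as well, so tissue and handling cannot be told apart. If the hemocyte donors were infected, infection and tissue cannot be told apart. In such bulk samples, fewer cells of a type and less RNA per cell cannot be told apart either.

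Intensities were deposited on a linear scale with array maxima between 15122 and 18454. The array-wide trimmed mean (2% off each end) was 86.1 to 105.2 in hemocytes, 72.5 to 88.5 in heads, 77.6 to 84.3 in two-round carcasses and 54.2 to 79.7 in one-round carcasses. One-round carcass replicate 3 stood apart at 79.7, against 54.2 to 56.5 on the other 3 one-round arrays. Several of the counts that rest on the one-round arrays are also given without that replicate. The background of an array, taken as the level that 95% of its Pf. probe sets (read as those of the malaria parasite) did not exceed, lay between 8.83 and 15.28, and all 84 members exceeded it on all 12 two-round arrays.

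The members covered a wide range of intensity, and it was much alike in each tissue. Their tissue means ran from 1033 to 16129 in hemocytes (median 5397), from 1076 to 16265 in heads (median 4661) and from 1013 to 16528 in two-round carcasses (median 4881). The median over members was 4992, 5811, 4995 and 6139 on the 4 hemocyte arrays. It was 4486, 5132, 4463 and 4094 on the head arrays and 4906, 4863, 4327 and 5040 on the two-round carcass arrays. The array medians of hemocytes and two-round carcasses overlapped, as did those of heads with both. The members together carried 9.54% to 11.56% of the summed Ag. intensity of an array, with the lowest share on one-round carcass replicate 3.

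**Figure D1:**
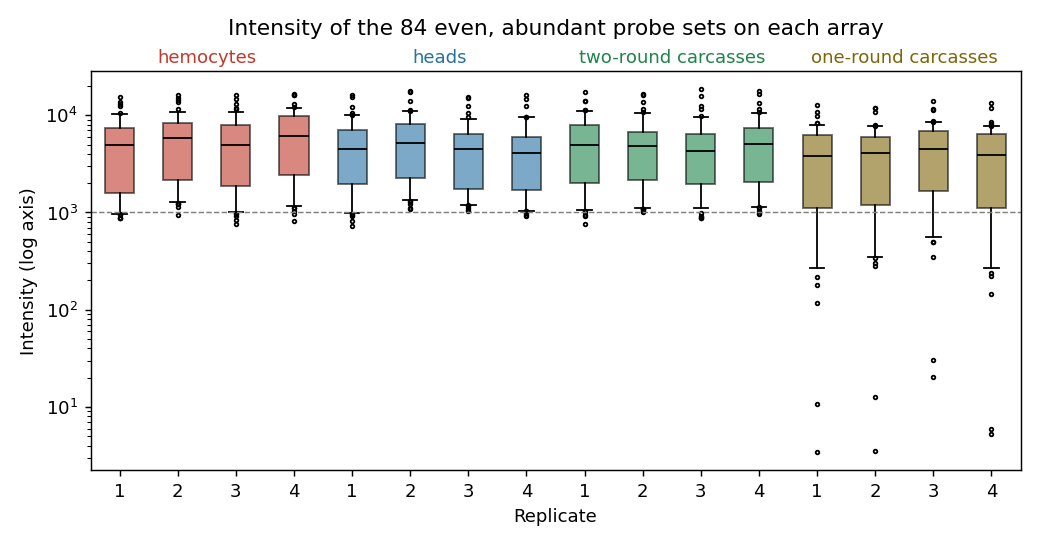
Intensity (log axis) of the 84 members on each of the 16 arrays, with boxes for the quartiles, whiskers from the 5th to the 95th percentile and points beyond them; the dashed line marks 1000. The two-round boxes lie at like heights with medians from 4094 to 6139, the one-round medians of 3808 to 4482 overlap their lower end, and 2 members lie near background on the one-round arrays.

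Within the limit, the members were not evenly divided between tissues. The mean was highest in hemocytes for 51 members, in heads for 19 and in two-round carcasses for 14. It was lowest in hemocytes for 13, in heads for 47 and in two-round carcasses for 24. The median log2 difference over members was 0.20 for hemocytes minus heads, 0.15 for hemocytes minus two-round carcasses and -0.03 for heads minus two-round carcasses, beside 0, 0.06 and 0.05 over all Ag. probe sets. This order depended on the scaling. Median centring of the arrays moved the median difference of all Ag. probe sets between hemocytes and heads to 0.15, and the hemocyte mean was then highest for 61 of the 84. After quantile normalization it was highest in hemocytes for 35 and in heads for 34.

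The median span was 0.39 among members and 0.97 among the other abundant probe sets, which reached 3.79. The span of Ag.2R.6.6_UTR_s_at was 0.499 and that of Ag.3L.119.0_CDS_at 0.496, just inside the limit, while Ag.2L.162.0_CDS_a_at at 0.5004 and Ag.3R.526.0_CDS_s_at at 0.505 fell just outside. At the lower end of level, Ag.2L.2851.0_at entered with 1013 ± 176 (SD, n = 4) and Ag.3R.197.1_CDS_s_at with 1015 ± 48.4, both in two-round carcasses. Ag.2R.588.0_CDS_a_at with 969 ± 258 in hemocytes and Ag.2R.860.0_CDS_at with 969 ± 349 in heads stayed out. Such neighbours do not differ beyond the spread between arrays. Leaving out any single array gave between 70 and 98 members. Without head replicate 4, whose labels conflict, the rule took 93 probe sets, among them 80 of the 84, and 42 of the 93 also met it with one-round carcasses.

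The tightest member over all 4 groups, one-round carcasses included, was Ag.X.141.0_CDS_s_at on the X chromosome. It measured 1371, 1231, 1113 and 1216 on the hemocyte arrays, 1232, 1209, 1108 and 951 on the head arrays, 1235, 1190, 875 and 1242 on the two-round carcass arrays, and 1041, 1127, 1233 and 1187 on the one-round carcass arrays. All 4 groups overlapped, and their log2 means lay within 0.13. With quantile normalization its two-round minus one-round difference in carcasses was -0.45 (limma adjusted p = 0.031), and it no longer met the rule. The next was Ag.2L.2853.1_s_at on arm 2L, with 11415 ± 628 in hemocytes, 9971 ± 1110 in heads, 10552 ± 1240 in two-round carcasses and 10317 ± 1180 in one-round carcasses (SD, n = 4). Its 4 log2 means lay within 0.20. Over all 4 groups, 32 of the 84 members (38.1%) kept a span under 0.5, and 28 did without one-round replicate 3.

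Evenness was more frequent among bright probe sets when these were sorted by their tissue levels, and did not climb steadily with the one-round level. Among Ag. probe sets whose lowest tissue mean was 1000 to 2000, 24 of 197 (12.2%) were even. The count was 15 of 107 (14%) from 2000 to 4000, 32 of 100 (32%) from 4000 to 8000, and 13 of 15 (86.7%) from 8000 up. Here the level and the span come from the same arrays, and the array maxima bound how far a tissue could lie above the other two. The last class holds few probe sets, and the share also climbed over the other classes without it. Sorted instead by the mean on the one-round arrays, which the rule did not use, 35 of 406 probe sets (8.62%) had a span under 0.5 from 500 to 1000, 17 of 226 (7.52%) from 1000 to 2000 and 15 of 199 (7.54%) from 2000 to 4000. The figures were 38 of 165 (23%) from 4000 to 8000 and 5 of 39 (12.8%) from 8000 up. The share was thus highest in the 4000 to 8000 class and lower on either side of it, and it ran from 6.86% to 23.6% with the same class highest without one-round replicate 3.

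**Figure D2:**
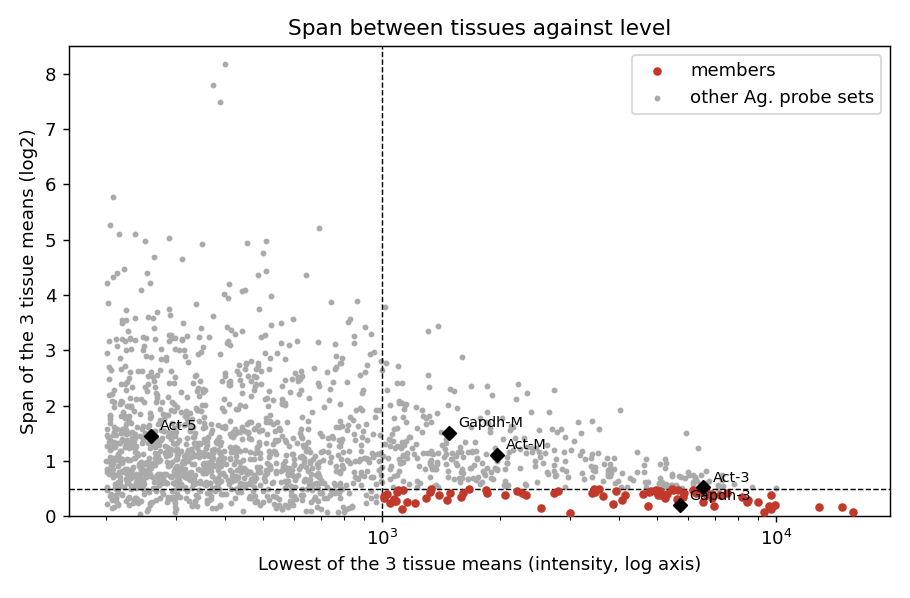
Span of the 3 tissue means (log2) against the lowest of the 3 means (intensity, log axis). Members are red and other Ag. probe sets grey, without those that were dim in any tissue. Diamonds are control probe sets of actin and Gapdh, without the dim 5′ one of Gapdh. Dashed lines mark the limits of 1000 and 0.5. From 8000 up, 13 of 15 probe sets lie below the span limit.

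A pair of members sat close to the top of the intensity scale and were picked out after their values were seen. Ag.2L.2855.0_s_at measured 15526, 16179, 16270 and 16541 in hemocytes, 15349, 17632, 15097 and 14798 in heads, 17238, 16474, 15708 and 16599 in two-round carcasses, and 12624, 11841, 11588 and 11776 in one-round carcasses. Its span over the tissues was 0.07, and its median SD within groups, 0.05 on the log2 scale, was the smallest of the 84. The one-round arrays all lay below the two-round arrays (log2 difference of two-round minus one-round carcasses 0.46 ± 0.10 SE, limma adjusted p = 0.003, against 0.075 with a pseudocount of 1 and 0.052 with quantile normalization). The other, a coding sequence probe set of arm 2R whose ID ends in _x_at, averaged 14695 ± 1250 in hemocytes, 16265 ± 714 in heads, 16528 ± 1980 in two-round carcasses and 12265 ± 1830 in one-round carcasses (SD, n = 4). It gave the highest reading of any array, 18454 on two-round carcass replicate 3. Whether readings this close to the array maxima are compressed was not tested.

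Replicate arrays of one group agreed more closely for the members than for probe sets at large. The median SD of log2 values within a group was 0.188 in hemocytes, 0.204 in heads, 0.160 in two-round carcasses and 0.195 in one-round carcasses. It was 0.234, 0.270, 0.178 and 0.222 in the same groups for the other abundant probe sets, and 0.273, 0.280, 0.263 and 0.277 over all Ag. probe sets, most of which were dimmer. The rule used all these groups but one-round carcasses, and a limit on the span favours probe sets with a small spread. Members were also brighter, as 60 of 84 had a lowest tissue mean of 2000 or more, against 162 of 335 other abundant ones. These values are thus a description. An even mean can still hide loose replicates. Ag.2R.4674.0_at, the member with the largest spread, measured 1194, 2417, 760 and 823 in hemocytes, 821, 1959, 1611 and 1777 in heads, and 1069, 1022, 1975 and 1256 in two-round carcasses. Its tissue means differed by a span of 0.33, while single arrays of one tissue differed by more than 2-fold.

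The carcasses labelled by 1 round were not used to choose the members and show how far their levels carried over to another labelling. Of the 84 members, 67 (79.8%) also averaged at least 1000 on the one-round arrays, against 244 of the 335 other abundant probe sets (72.8%). With one-round carcasses in place of two-round carcasses, 37 members (44%) still met both criteria, beside 19 of the other abundant probe sets (5.67%). Hemocyte and head arrays enter both versions, so these counts are a description. Without one-round replicate 3, 65 members (77.4%) averaged at least 1000, beside 234 other abundant probe sets (69.9%), and 32 members met both criteria.

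The comparison of carcasses after 2 rounds and after 1 round gave a difference for each member, in which labelling and the array-wide scale both enter. The trimmed means were 77.6 to 84.3 in two-round carcasses and 54.2 to 79.7 in one-round carcasses. At an adjusted p under 0.05 and at least 2-fold, 15 of 84 members (17.9%) were called higher after 2 rounds, beside 7.29% of all Ag. probe sets and 89 of 335 other abundant ones (26.6%). Called lower was 1 member, beside 2.61% of all Ag. probe sets. At any fold 46 members passed as higher, beside 16.7% of all, and 4 as lower, beside 5.82% of all, while 34 did not pass. The median log2 difference of two-round minus one-round carcasses was 0.48 over members, 0.58 over the other abundant probe sets and 0.12 over all (limma, Benjamini-Hochberg over 16884 probe sets). With median centring the median over all Ag. probe sets was 0 and that over members 0.37. The minimum of 1000 was set on two-round arrays and not on one-round arrays, so the rule itself favours members that are higher after 2 rounds, and the share is no result about the members. Close to that minimum, with a lowest tissue mean under 2000, 10 of 24 members (41.7%) were called higher, against 5 of 60 (8.33%) above it. Among the other abundant probe sets these shares were 34.7% and 17.9%, and over all Ag. probe sets, most of which are dim, 7.18% and 15.3%. Quantile normalization left 9 members called higher and 2 lower, and 34 and 12 at any fold. Without one-round replicate 3, 20 members were called higher and 1 lower, beside 9.54% of all Ag. probe sets called higher.

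The class in the ID moved with the labelling difference. Among members, its median was 0.75 on the log2 scale for the 14 marked UTR, 0.63 for the 25 unmarked and 0.17 for the 45 marked CDS. Over all Ag. probe sets the medians were 0.53, 0.32 and 0.09 in the same order of classes, and over the other abundant ones 0.86, 1.00 and 0.28. Called higher were 3 of the 14 UTR members (21.4%), 8 of the 25 unmarked (32%) and 4 of the 45 CDS members (8.89%), beside 23.3%, 19.9% and 4.56% of all Ag. probe sets of these classes. Without one-round replicate 3 the members' medians were 0.87, 0.70 and 0.23, and 7 UTR, 9 unmarked and 4 CDS members were called higher. The order of UTR above CDS was thus found in the members as in all Ag. probe sets. CDS probe sets made up 53.6% of the members, 54.3% of the other abundant ones and 83.3% of all Ag. probe sets.

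**Figure D3:**
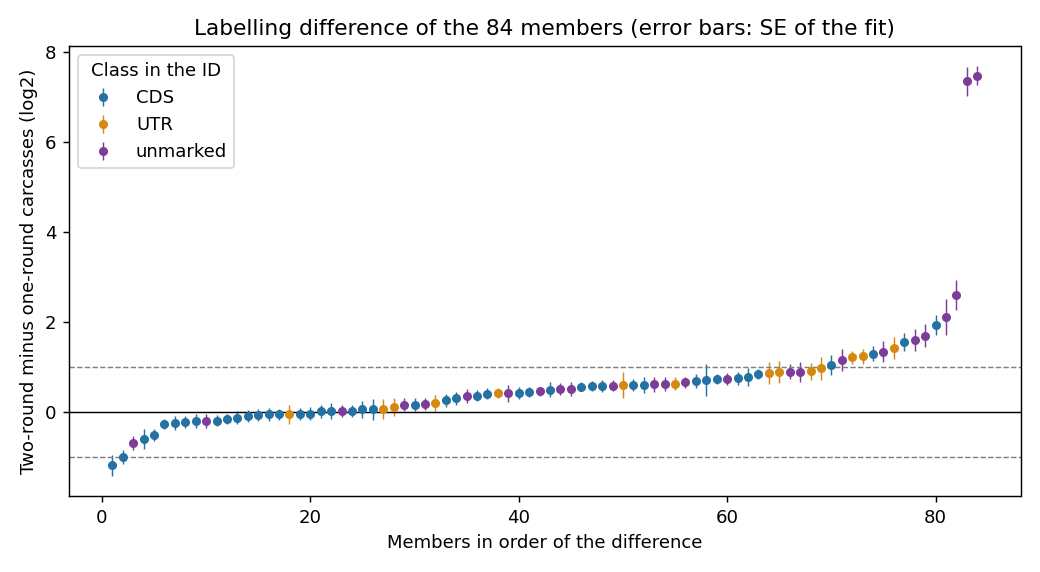
Log2 difference of two-round minus one-round carcasses for each of the 84 members, in rising order, with the SE of the fit as error bars and the class in the ID as colour; dashed lines mark 2-fold. The other 82 members lie between -1.18 and 2.60, and 2 unmarked members lie apart at 7.34 and 7.46.

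The largest rises after 2 rounds were at a pair of members with no chromosome arm and no class mark. Ag.UNKN.2223.0_s_at measured 2965, 4302, 5140 and 3976 in hemocytes, 2999, 4648, 3451 and 4395 in heads, and 3959, 4954, 4922 and 4116 in two-round carcasses, against 10.8, 3.53, 20.4 and 5.88 in one-round carcasses. It was bright and even on all two-round arrays (span 0.23) but near background after 1 round, above it on 2 of 4 arrays. The log2 difference was 7.46 ± 0.21 (SE, limma adjusted p = 1.5e-12).

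Ag.UNKN.2225.0_at measured 3585, 3643, 7503 and 2698 in hemocytes, 2070, 3368, 3868 and 4331 in heads, and 3724, 4772, 4424 and 4743 in two-round carcasses, against 3.44, 12.8, 30.6 and 5.3 in one-round carcasses. Again 2 of the 4 one-round arrays were above background, and none came near the two-round arrays of the same tissue (log2 difference 7.34 ± 0.32 SE, limma adjusted p = 3.1e-10). For both, the size of the difference rests on the pseudocount, and over 25 alternatives it ran from 5.94 to 8.89 for Ag.UNKN.2223.0_s_at and from 5.87 to 8.71 for Ag.UNKN.2225.0_at.

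These were part of a small group on the array, picked out after the values were seen. Of all 16884 Ag. probe sets, 11 were called at least 16-fold higher after 2 rounds, and all 11 were UNKN probe sets with no class mark and abundant in all 3 tissues. The same 11 were called without one-round replicate 3. The 9 that were no members had tissue spans of 0.62 to 2.11. The means of the 11 ran from 1378 to 10614 in the two-round tissues, against 2.91 to 31.4 in one-round carcasses. The other 82 members stayed above background on all 16 arrays, with one-round means of 239 or more. In all, 4 members were UNKN without a mark, and all 4 were called higher after 2 rounds, as were 12 of the 13 such probe sets among the other abundant ones and 28 of 119 (23.5%) on the array. The minimum of 1000 on two-round carcasses favours such calls among abundant probe sets, so these shares are no result about the members. None of the 3 UNKN members marked CDS was called higher (0 of 3), beside 4 of 8 (50%) among the other abundant ones and 45 of 1803 (2.5%) on the array. The even level of those 2 members was thus a level on two-round arrays, with almost no signal in one-round carcasses, and the cause was not tested.

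In the other direction, Ag.2R.15.0_CDS_x_at was the member called lower after 2 rounds. It measured 1567, 1950, 1895 and 3380 in hemocytes, 1796, 2096, 1412 and 1140 in heads, and 2040, 1652, 1319 and 1936 in two-round carcasses, against 3618, 3948, 4451 and 3689 in one-round carcasses. The carcass groups did not overlap, and the difference was -1.18 ± 0.23 (SE, limma adjusted p = 0.0015), lower in 4 of 4 pairs. Ag.UNKN.380.0_CDS_s_at, named after its values were seen, fell just short of 2-fold, with 4135 ± 295 in two-round carcasses and 8205 ± 324 in one-round carcasses (SD, n = 4). Its log2 difference was -0.99 ± 0.16 (SE, limma adjusted p = 0.00041).

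**Figure D4:**
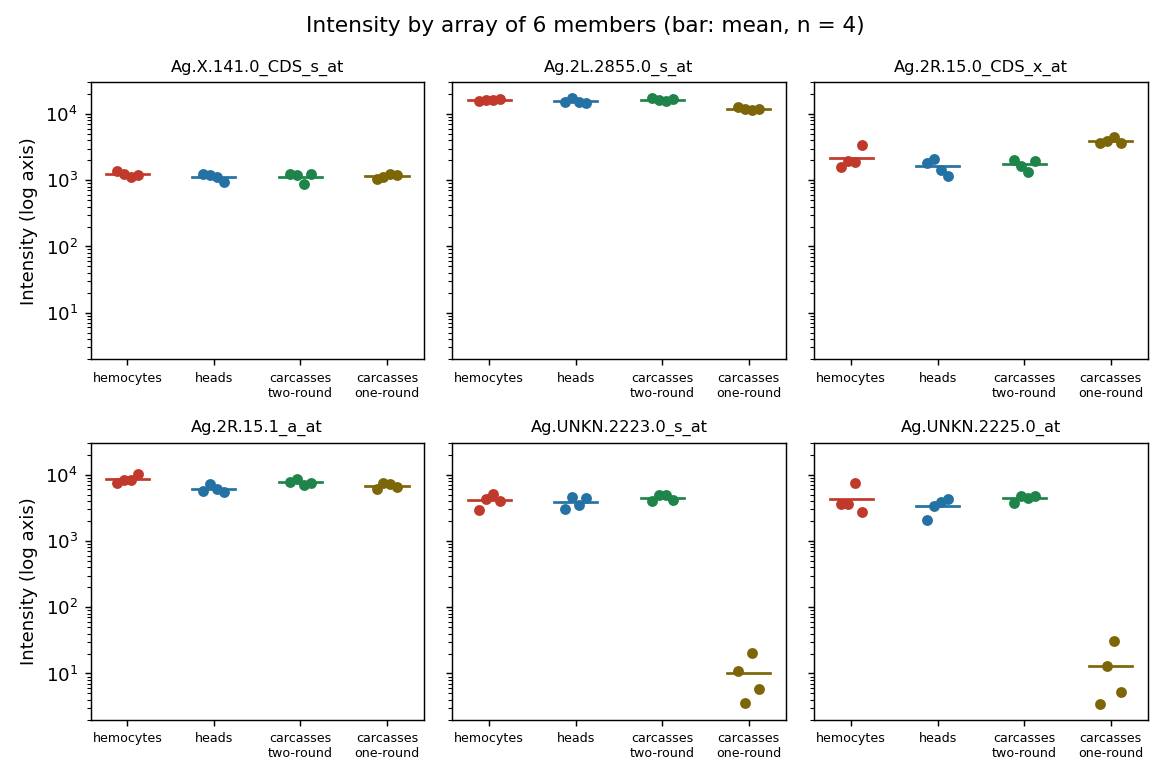
Intensity by array (log axis) of 6 members in hemocytes, heads, two-round and one-round carcasses; points are arrays and bars the mean of 4. Ag.X.141.0_CDS_s_at is level in all 4 groups, Ag.2R.15.0_CDS_x_at is higher in one-round carcasses, and both UNKN members drop to 30.6 or less there.

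Members that share an ID stem, read here as probe sets of 1 locus although no source used here records it, show how far evenness belongs to a probe set. A second member had the same stem in 7 cases. The CDS and UTR probe sets Ag.2L.153.0_CDS_a_at and Ag.2L.153.0_UTR_a_at had spans of 0.40 and 0.39, but their labelling differences were -0.05 ± 0.14 and 0.63 ± 0.14 (SE). For Ag.2R.15.0_CDS_x_at and Ag.2R.15.1_a_at the spans were 0.42 and 0.47, and the labelling differences -1.18 and 0.18. Ag.2R.6.3_UTR_s_at and Ag.2R.6.6_UTR_s_at ran almost alike, at 0.97 and 0.89. Over the 7 pairs the second probe set differed from the first in its labelling difference by -0.21 to 1.36 on the log2 scale, while every span was under 0.5 by the rule.

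A further 39 probe sets shared a stem with a member without being members themselves. Of these, 20 were abundant, with spans from 0.53 to 1.08 (median 0.61), above the limit as the rule has it, and 15 members had such an abundant neighbour. The median span over all other abundant probe sets was 0.97. A further 5 of the 39 had a span under the limit but missed the minimum of 1000. In all, 37 members had another probe set of their stem on the array, member or not, and 47 had none. The members came from all arms, with 16 on 2L (19%), 26 on 2R (31%), 13 on 3L (15.5%), 15 on 3R (17.9%), 7 on X (8.33%) and 7 with no arm (8.33%). Among all Ag. probe sets these shares were 20.3%, 26.3%, 14.8%, 18.8%, 8.31% and 11.5%. IDs ending in _s_at made up 23.8% of the members, 28.1% of the other abundant probe sets and 8.14% of all Ag. probe sets.

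Actin, a main part of the cytoskeleton, and Gapdh, a glycolytic enzyme, are widely used as reference genes. The array holds a control probe set at the 3′ end, the middle and the 5′ end of each. The IDs of the actin controls end in _s_at, so their levels may be sums over several genes. Set against the same 2 criteria, 1 of these 6 passed. The 3′ probe set of Gapdh measured 6164, 8128, 4721 and 7449 in hemocytes, 5648, 7478, 4537 and 5494 in heads, 7009, 5807, 4105 and 5982 in two-round carcasses, and 6229, 6044, 4605 and 5102 in one-round carcasses. All groups overlapped (span 0.20 over the 3 tissues, 0.25 over all 4 groups). The middle of the same gene was uneven, with 3719 ± 1080 in hemocytes, 1479 ± 516 in heads, 4194 ± 1140 in two-round carcasses and 7529 ± 1100 in one-round carcasses (SD, n = 4; span 1.51). Its 5′ end had a span of 0.95.

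Actin at its 3′ end just missed the limit, at 9472 ± 987 in hemocytes, 7272 ± 677 in heads, 6552 ± 287 in two-round carcasses and 4361 ± 783 in one-round carcasses (span 0.53). Its middle and 5′ probe sets had spans of 1.11 and 1.45. The controls of actin and Gapdh thus met or neared the span limit at the 3′ end and not further along, where the 5′ ones were also dimmer. Between labellings, the log2 difference of two-round minus one-round carcasses was 0.04, -0.88 and -4.13 from the 3′ end to the 5′ end of Gapdh, and 0.60, -0.78 and -2.60 for actin.

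**Figure D5:**
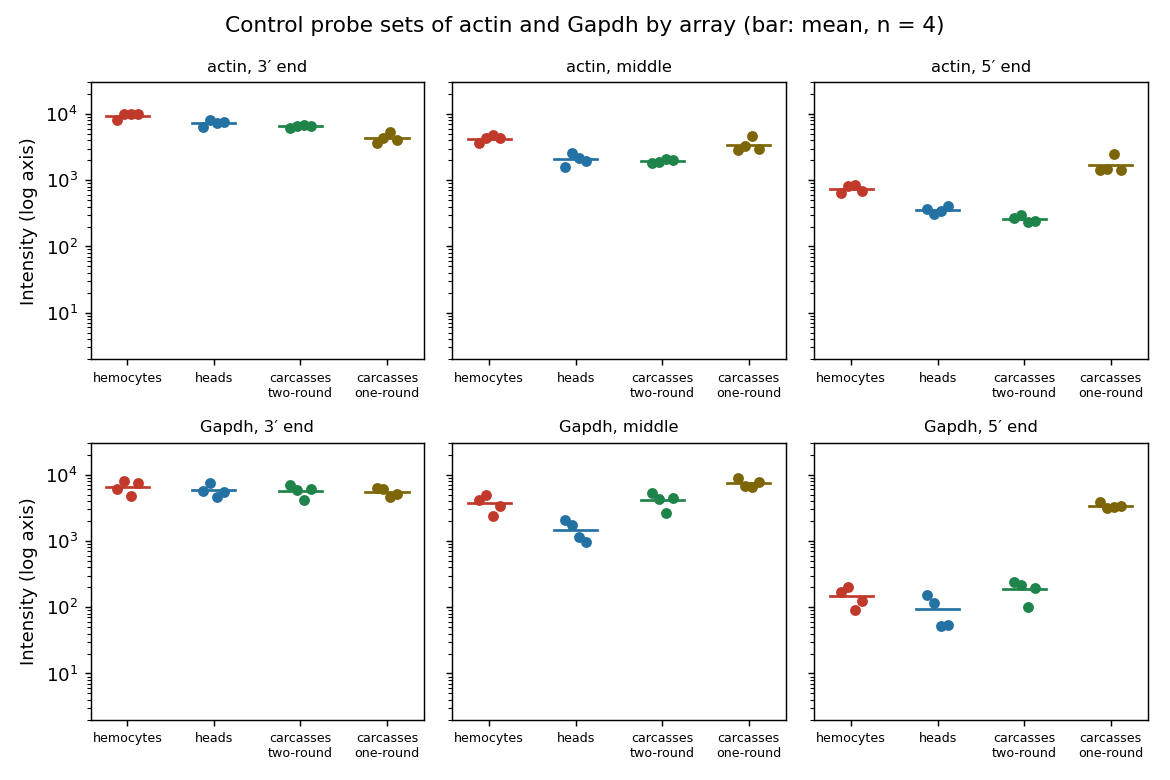
Intensity by array (log axis) of the 3′, middle and 5′ control probe sets of actin (top) and Gapdh (bottom) in hemocytes, heads, two-round and one-round carcasses; points are arrays and bars the mean of 4. The 3′ probe set of Gapdh is level (span 0.20), while its middle one is lowest in heads.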

How the data were processed

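The authors deposited 1 linear intensity for each probe set on each of 16 arrays. They used GCOS 1.4, per the submitters' processing notes, with its background correction, scaling and way of summarising probes not given in the sources used here. No further normalization was applied. Members followed the rule stated above, and members and lists were chosen with earlier results of these data known. A linear model with the 4 groups as means (12 residual degrees of freedom) was fitted with lmFit and eBayes (limma 3.58.1, R 4.3.3) to log2(intensity + 16) of the 16884 Ag. probe sets, with Benjamini-Hochberg adjustment and calls at an adjusted p under 0.05 and at least 2-fold. The pseudocount makes fold changes of dim probe sets smaller. The fit was tested on simulated data. Counts by class, level and 16-fold call without one-round replicate 3 were added after seeing the data. Replicate numbers were checked on 13061 probe sets above background on at least 4 arrays. Deviations of same-numbered two-round and one-round carcass arrays correlated at 0.24 to 0.54, against -0.15 to 0.20 between other groups. Same-numbered carcass arrays were therefore read as paired, although arrays of unlike number were not compared. The main fit had no block for replicate, and fits with it are given below.

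Named probe sets were the members with the 2 largest rises and falls after 2 rounds among those called whose carcass arrays do not overlap, the 2 with the smallest span over 4 groups, those next to each limit, those with the largest and smallest spread, and stems with most members. The gene lists and cell type markers set for matching by gene name could not be used, since 0 IDs matched. With 4 arrays per group, their number limits the precision.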

Additional observations from a re-analysis of the deposited data

Results flagged for a closer look

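Among 132 groups of 4 arrays tested (26 named members, the 6 controls and the median over members), 4 had 1 array far from the other 3, with a gap to its nearest neighbour that exceeded Dixon's 95% critical share of the group's range. Chance flags about 1 in 20 groups, and the causes were not tested. Ag.UNKN.2292.0_s_at measured 2825 on hemocyte replicate 4, against 1216, 1239 and 1380 on the others (gap 0.85 of the range). Ag.X.141.0_CDS_s_at measured 875 on two-round carcass replicate 3, against 1235, 1190 and 1242 (gap 0.878). The 3′ control probe set of actin measured 7999 on hemocyte replicate 1, against 9995, 9829 and 10064 (gap 0.897). Its 5′ control probe set measured 2449 on one-round carcass replicate 3, the array with the high trimmed mean, against 1405, 1491 and 1432 (gap 0.893).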

How the results depend on the processing

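The number of members moved with the limits of the rule, to 19 with a span limit of 0.25, 256 with a limit of 1, 153 with a minimum mean of 500 and 60 with one of 2000. It also moved with scaling, to 53 members with median centring (47 of the 84) and 108 with quantile normalization (63 of the 84). Calls at any fold were 46 higher and 4 lower in place of 15 and 1. Median centring gave 14 higher and 2 lower calls and a median labelling difference of 0.37, and quantile normalization gave 9, 2 and 0.24. The replicate block left the calls at 2-fold or more at 15 and 1, with 16 arrays and with the 8 carcass arrays. At any fold it gave 45 and 5 with 16 arrays, and 41 and 4 with 8 (43 and 4 without it). Leaving out each array in turn gave 70 to 98 members, 27 to 45 that met the rule with one-round carcasses, 14 to 20 higher and 1 to 2 lower calls, and medians of 0.45 to 0.52. The 2 lower calls arose without two-round carcass replicate 3 or 4 or one-round replicate 2. Of the 26 named members, 3 that did not pass as deposited had a labelling difference near 0 that changed sign. Ag.2L.2853.1_s_at (0.03) was at -0.08 with median centring, -0.21 with quantile normalization and -0.05 to 0.10 without single carcass arrays (below 0 at -0.05, -0.02 and -0.01). Without single arrays Ag.2L.153.0_CDS_a_at (-0.05) ran from -0.10 to 0.04, and Ag.X.141.0_CDS_s_at (-0.03) from -0.07 to 0.09, with 0.01 without one-round replicate 3. The causes were not tested. Signal over background did not limit the two-round values, while 2 members lay near background after 1 round, where a fold rests on the pseudocount.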

Other observations

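A set of 29 of the 84 members (34.5%) met the rule as deposited, with median centring and with quantile normalization alike. Their spans were at most 0.43 (median 0.25), 15 of the 29 also met the rule with one-round carcasses, and 4 of the 29 were called higher and 0 lower after 2 rounds, beside 17.9% and 1.19% of the 84 members and 7.29% and 2.61% of all Ag. probe sets. Both UNKN members near background after 1 round were among the 29. Over all 336 groups of 4 arrays of the 84 members, 20 had 1 array far from the other 3, where chance flags about 1 in 20. Two-round carcass replicate 3 and one-round carcass replicate 3 accounted for 6 each. Members measured on the same array are not independent, so such flags are not separate events.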
